A study of Mus musculus with 3 samples.

Results

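The astroglial lipid and glutamate uptake genes described here are 10 genes that serve as markers of astrocytes and of the radial glia from which astrocytes arise: *Fabp7*, *Apoe*, *Aldoc*, *Slc1a3*, *Slc1a2*, *Clu*, *Glul*, *Aqp4*, *Mfge8* and *Gja1*. They were chosen by symbol, and all 10 were found among the 14933 genes in the table of filtered cells. The data are 10X Chromium 3′ single-cell RNA sequencing (scRNA-seq) libraries of tdTomato+ cells, isolated by fluorescence-activated cell sorting (FACS) from the medial prefrontal cortex (mPFC) of C57Bl6 mice at postnatal day 5 (P5). There was 1 library per genotype: *Tbr1* wild-type (Rbp4cre::tdTomato), layer 5 heterozygous (Tbr1f/+::Rbp4cre::tdTomato) and layer 5 homozygous (Tbr1f/f::Rbp4cre::tdTomato). Rbp4-cre and the tdTomato reporter were thus present in every group, wild-type included. Rbp4-cre is a transgene used to reach layer 5 projection neurons, where it deletes floxed *Tbr1*, a T-box transcription factor of deep-layer cortical neurons. Astrocytes are not among the cells this driver is used to target. How many animals went into each library is not given in the sources used here. Each genotype being 1 library, no test of a genotype difference was possible, and every interval is a 95% interval that covers counting error only.

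These genes serve the support that astroglia give to neurons. *Fabp7*, the brain fatty acid binding protein of radial glia and young astrocytes, *Apoe*, the main apolipoprotein of brain lipoprotein particles, and *Clu*, the secreted apolipoprotein clusterin, carry lipids. *Slc1a3* (GLAST) and *Slc1a2* (GLT-1) are the glutamate transporters that clear the transmitter from the extracellular space, and *Glul*, glutamine synthetase, turns the glutamate taken up into glutamine. *Aqp4* is the water channel of astrocytic endfeet, and *Gja1* encodes the gap junction protein connexin 43. *Mfge8* is a secreted protein that bridges phosphatidylserine to integrins during phagocytosis, and *Aldoc* is the brain aldolase of glycolysis.

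RefSeq promoter windows on GRCm38.p6, each from 250 bases before to 50 bases after an annotated start, were found for 8 of the 10 genes, with 11 start sites in all. The 4 windows shown belong to the genes whose levels frame the results: *Fabp7* and *Aldoc* differed least between astrocyte-like cells and neurons, *Slc1a3* was among the 2 genes that differed most in each library, and *Apoe* gave the most UMIs over all filtered cells. They are written 5′ to 3′ on the strand of the gene, with matches to a searched motif in capitals.
Fabp7, chr10:57784673-57784972, plus strand: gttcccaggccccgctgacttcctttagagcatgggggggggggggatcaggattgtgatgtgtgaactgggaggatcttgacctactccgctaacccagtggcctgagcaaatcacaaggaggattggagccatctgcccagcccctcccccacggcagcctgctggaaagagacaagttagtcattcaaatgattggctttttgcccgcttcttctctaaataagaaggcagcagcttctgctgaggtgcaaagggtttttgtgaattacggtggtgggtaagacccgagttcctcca
Apoe, first of 3 start sites, chr7:19699139-19699438, minus strand: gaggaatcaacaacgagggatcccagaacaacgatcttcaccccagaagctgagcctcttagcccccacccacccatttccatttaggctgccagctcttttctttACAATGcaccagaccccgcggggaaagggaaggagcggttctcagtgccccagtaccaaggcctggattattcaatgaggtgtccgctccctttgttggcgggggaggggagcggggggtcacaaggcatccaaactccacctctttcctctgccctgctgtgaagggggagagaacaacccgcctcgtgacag
Slc1a3, chr15:8710758-8711057, minus strand: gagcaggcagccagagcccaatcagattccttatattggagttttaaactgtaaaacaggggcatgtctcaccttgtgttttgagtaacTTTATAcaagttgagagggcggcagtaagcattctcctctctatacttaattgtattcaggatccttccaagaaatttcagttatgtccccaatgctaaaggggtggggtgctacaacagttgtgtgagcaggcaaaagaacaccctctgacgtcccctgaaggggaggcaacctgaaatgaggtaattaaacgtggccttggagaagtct
Aldoc, first of 2 start sites, chr11:78322823-78323122, plus strand: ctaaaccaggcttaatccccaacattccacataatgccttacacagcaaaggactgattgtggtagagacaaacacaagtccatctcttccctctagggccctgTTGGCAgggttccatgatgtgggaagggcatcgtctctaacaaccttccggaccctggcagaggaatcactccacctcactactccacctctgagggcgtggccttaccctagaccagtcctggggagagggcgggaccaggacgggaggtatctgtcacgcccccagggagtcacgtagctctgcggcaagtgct
The motifs searched on both strands were the T-box half-site GGTGTGA, the nuclear factor I (NFI) half-site TTGGCA, the SOX site CATTGT and the TATA box TATAAA, none of which is contained in another. Of the 11 windows, 0 held the T-box letters, beside 3.98% of all 32851 promoter windows. The NFI letters were in 2 of the 11 windows and 14.1% of all windows, the SOX letters in 1 and 12.6%, and the TATA letters in 2 and 13.6%. In the printed windows the capitals mark a SOX match on the opposite strand 144 bases before the first *Apoe* start, a TATA match on the opposite strand 161 bases before the *Slc1a3* start and an NFI match 146 bases before the first *Aldoc* start. The *Fabp7* window held none of the 4 motifs. A match of letters is a description and not evidence of binding.

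All 10 are protein-coding genes. By the GRCm38 annotation they lie at chr10:57784881-57788450 (*Fabp7*, plus strand), chr7:19696109-19699188 (*Apoe*, minus), chr11:78322968-78327781 (*Aldoc*, plus), chr15:8634124-8710764 (*Slc1a3*, minus), chr2:102658659-102790784 (*Slc1a2*, plus), chr14:65968483-65981547 (*Clu*, plus), chr1:153899944-153909723 (*Glul*, plus), chr18:15389496-15410982 (*Aqp4*, minus), chr7:79133768-79149060 (*Mfge8*, minus) and chr10:56377330-56402513 (*Gja1*, plus).

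The libraries held 33322518 to 55057757 unique molecular identifiers (UMIs, each standing for 1 captured transcript) over all barcodes. The authors kept 4955 wild-type, 6862 heterozygous and 5579 homozygous cells and retained 1778, 5357 and 3935 of these as neurons for their comparison (here typical neurons), with a median of 1901, 1743 and 1375 UMIs per cell. A further 304, 107 and 462 cells were neuronal but not retained (atypical cells), and 2873, 1398 and 1182 were other cells. Pairs of libraries shared 37 to 58 cell barcodes, and doublets were neither called nor removed here. *Tbr1* was at 27.5, 30.7 and 22.4 CPM (UMIs per 1000000 UMIs of the same cells) in typical neurons of the wild-type, heterozygous and homozygous library, but the 3′ tags lie outside the deleted exons, so this does not check the genotype labels. The 9 excitatory neuron markers summed to 2976, 3629 and 4307 CPM in typical neurons. Of 25 clusters made here from all filtered cells, 15 met the rule for a name but none for excitatory neuron-like, and 92.7% of typical neurons lay in unnamed clusters 0, 1, 4, 5 and 8. Cluster 3, with 506 wild-type, 130 heterozygous and 169 homozygous cells, was astrocyte-like: 16 of 18 astrocyte markers were at least 2-fold above the other clusters, and *Ptprz1*, *Gfap* and *Plpp3* led it. The 10 genes were in no marker list and were not used for clustering. Of the 805 astrocyte-like cells, 788 were other cells by the lists of the authors and 13 were typical neurons.

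Astrocyte-like cells held far more of the 10 genes than typical neurons, but the excess was very unequal between genes. The 10 together were at 42697, 43188 and 44957 CPM in astrocyte-like cells of the wild-type, heterozygous and homozygous library, or 4.27%, 4.32% and 4.50% of all their UMIs, and at 11332, 10626 and 11593 CPM in typical neurons. Levels at least 2-fold higher than in typical neurons of the same library were seen for 9, 9 and 8 of the 10 genes, where 32.5%, 29.1% and 28.1% of all genes that averaged 20 CPM or more were. None of the 10 was lower by that much, where 8.16%, 8.16% and 8.74% of all genes were. Since 1 tag was counted per molecule at the 3′ end, CPM values are per transcript and were not divided by gene length.

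*Slc1a3* and *Aqp4* separated the cell classes most. *Slc1a3* was at 147 (135 to 160.3), 116 (109 to 122) and 127 (118 to 136) CPM in typical neurons of the wild-type, heterozygous and homozygous library. In astrocyte-like cells it was at 2708 (2625 to 2792), 2293 (2147 to 2446) and 2472 (2318 to 2635) CPM. Every astrocyte-like value was above every neuronal value, and the ratio within a library was 18.4, 19.8 and 19.5. *Aqp4* was at 31.9 (26.4 to 38.2), 41.2 (37.4 to 45.3) and 40.5 (35.6 to 45.9) CPM in typical neurons, where it was the least abundant of the 10, and at 686 (644 to 729), 1057 (959 to 1162) and 773 (688 to 866) CPM in astrocyte-like cells, a ratio of 21.5, 25.7 and 19.1. The secreted bridging protein *Mfge8* followed with ratios of 14.0, 15.5 and 13.4 and the connexin *Gja1* with 14.3, 15.9 and 12.7.

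*Slc1a2*, the other glutamate transporter, stood less apart than *Slc1a3*. It was at 166 (153 to 179.9), 191 (183 to 199.6) and 182 (171 to 193) CPM in typical neurons of the wild-type, heterozygous and homozygous library. In astrocyte-like cells it was at 849 (803 to 897), 1097 (997 to 1204) and 763 (678 to 855) CPM, and the ratio was 5.11, 5.74 and 4.19. In typical neurons *Slc1a2* was above *Slc1a3* in every library, whereas in astrocyte-like cells it was below *Slc1a3* in every library. *Glul* was at 438 (416 to 459), 570.3 (556 to 585) and 539 (520.3 to 557) CPM in typical neurons and at 1749, 2009.9 and 1848 CPM in astrocyte-like cells, a ratio of 3.998, 3.52 and 3.43.

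The lipid carriers *Apoe* and *Fabp7* were the most abundant of the 10 in both classes. *Apoe* was at 3968 (3904 to 4033), 4041 (4003 to 4080.2) and 4163 (4112 to 4215) CPM in typical neurons of the wild-type, heterozygous and homozygous library and at 22846, 23997 and 25465 CPM in astrocyte-like cells, a ratio of 5.76, 5.94 and 6.12. *Fabp7* was at 5713 (5636 to 5791), 4775 (4734 to 4818) and 5647 (5588 to 5707) CPM in typical neurons and at 9579, 8620.2 and 9762 CPM in astrocyte-like cells, so that its ratio was only 1.68, 1.81 and 1.73. Their order was reversed between the classes, with *Fabp7* above *Apoe* in neurons and *Apoe* above *Fabp7* in astrocyte-like cells of each library. Over all libraries *Fabp7* gave 47.2% of the UMIs of the 10 genes in typical neurons and 21.9% in astrocyte-like cells, while *Apoe* gave 36.8% and 54.4%. *Clu* was at 111, 99.1 and 101 CPM in typical neurons and at 903, 844 and 768 CPM in astrocyte-like cells, a ratio of 8.10, 8.52 and 7.63. The aldolase *Aldoc* stood close to *Fabp7*, with 602, 670.2 and 647 CPM in typical neurons and a ratio of 2.01, 2.03 and 1.82.

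**Figure D1:**
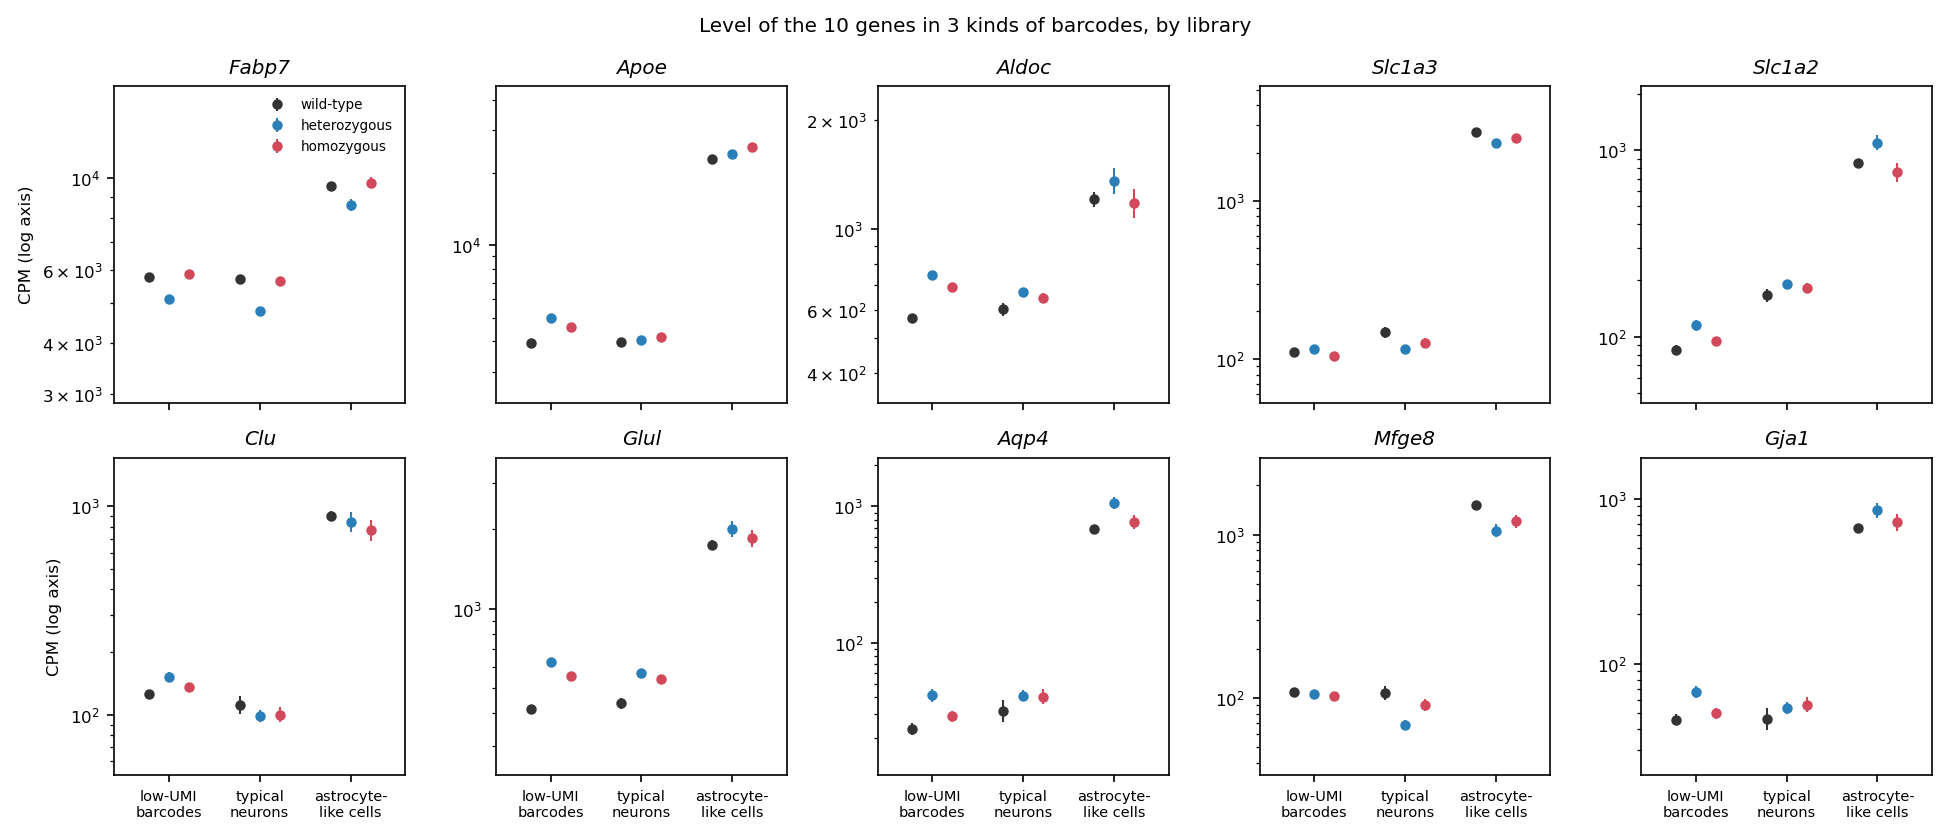
Level of each of the 10 genes in low-UMI barcodes, typical neurons and astrocyte-like cells, in CPM on a vertical log axis whose range differs between panels; points are the 3 libraries and bars are 95% counting intervals. Typical neurons sit near the low-UMI barcodes for most genes, while *Slc1a3* at 2293 to 2708 CPM in astrocyte-like cells lies far above both.

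The share of the counts that lay in astrocyte-like cells differed accordingly. These cells were 4.63% of filtered cells and held 6.13% of their UMIs. They held 60.5% of the *Aqp4* UMIs, 53.7% of the *Slc1a3* UMIs, 46.9% of the *Mfge8* UMIs and 43.8% of the *Gja1* UMIs. Of the *Fabp7* and *Aldoc* UMIs they held 12.7% and 13.6%, while typical neurons, with 53.9% of all UMIs, held 61.6% and 63.1%.

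To set the neuronal levels beside the RNA of droplets without a captured cell, the 10 genes were counted in barcodes of 100 UMIs or more that stayed under 500, of which there were 44157, 40520 and 55787 in the wild-type, heterozygous and homozygous library. These low-UMI barcodes were taken as mostly empty droplets, and the part that broken or small cells have in them was not tested. Typical neurons held about as much of the 10 genes as these barcodes. The sum was at 11169, 12077 and 12205 CPM in low-UMI barcodes, and the level in typical neurons was 1.01, 0.880 and 0.9499 times that. A 2-fold difference in either direction was seen for 0 of the 10 genes in any library, where 0.143%, 0.0461% and 0% of all genes were higher and 1.39%, 1.11% and 0.606% lower in typical neurons by that much. The side of 1 on which the ratio of the sum falls depends on the range of barcodes: with barcodes of 20 UMIs or more and under 100 the log2 ratio was 0.10, 0.066 and 0.20, against 0.021, -0.18 and -0.074 above.

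Over typical neurons as a whole, *Slc1a2* was the gene that stood out from this pattern, though unevenly between their clusters, as given below. In typical neurons it was at 1.96 (1.77 to 2.16), 1.66 (1.54 to 1.80) and 1.92 (1.77 to 2.08) times its low-UMI level in the wild-type, heterozygous and homozygous library, with every interval above 1. *Fabp7* was at 0.993 (0.978 to 1.01), 0.934 (0.922 to 0.946) and 0.965 (0.952 to 0.977) times its low-UMI level and *Apoe* at 1.01 (0.991 to 1.03), 0.809 (0.798 to 0.820) and 0.908 (0.895 to 0.922). For *Aldoc* the ratio was 1.06, 0.898 and 0.933, for *Glul* 1.05, 0.909 and 0.973 and for *Gja1* 1.01, 0.796 and 1.13. *Clu* was lower in neurons in all 3 libraries, at 0.881 (0.790 to 0.981), 0.651 (0.599 to 0.707) and 0.740 (0.674 to 0.811), and *Mfge8* was at 0.988, 0.651 and 0.871. *Slc1a3* was at 1.34 (1.21 to 1.47), 0.996 (0.915 to 1.08) and 1.21 (1.11 to 1.32) and *Aqp4* at 1.36 (1.09 to 1.68), 0.996 (0.863 to 1.15) and 1.40 (1.19 to 1.64) times the low-UMI level, so that both were above it in wild-type and homozygous but not distinguishable from it in heterozygous.

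Summed marker lists counted in the same way give the scale of these ratios. The excitatory neuron markers in typical neurons were at 1.64, 1.44 and 1.53 times their level in low-UMI barcodes of the wild-type, heterozygous and homozygous library. The blood markers were at 0.388, 0.145 and 0.203, the endothelial markers at 0.262, 0.173 and 0.241 and the microglia markers at 0.337, 0.142 and 0.269 times their low-UMI level. The mural markers were at 0.253, 0.133 and 0.195, the meningeal fibroblast markers at 0.268, 0.134 and 0.197, the cycling markers at 0.396, 0.384 and 0.557, the oligodendrocyte lineage markers at 0.770, 0.715 and 0.653 and the inhibitory neuron markers at 0.937, 0.687 and 0.995. The 18 astrocyte markers, none of them at 0 in typical neurons, were at 1.05, 0.934 and 0.975, with 3889.5, 3617 and 3801 CPM in typical neurons and 13296, 14293 and 12229 CPM in astrocyte-like cells. *Slc17a7*, the vesicular glutamate transporter of cortical excitatory neurons, was at 1.79, 1.56 and 1.52 times its low-UMI level.

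**Figure D2:**
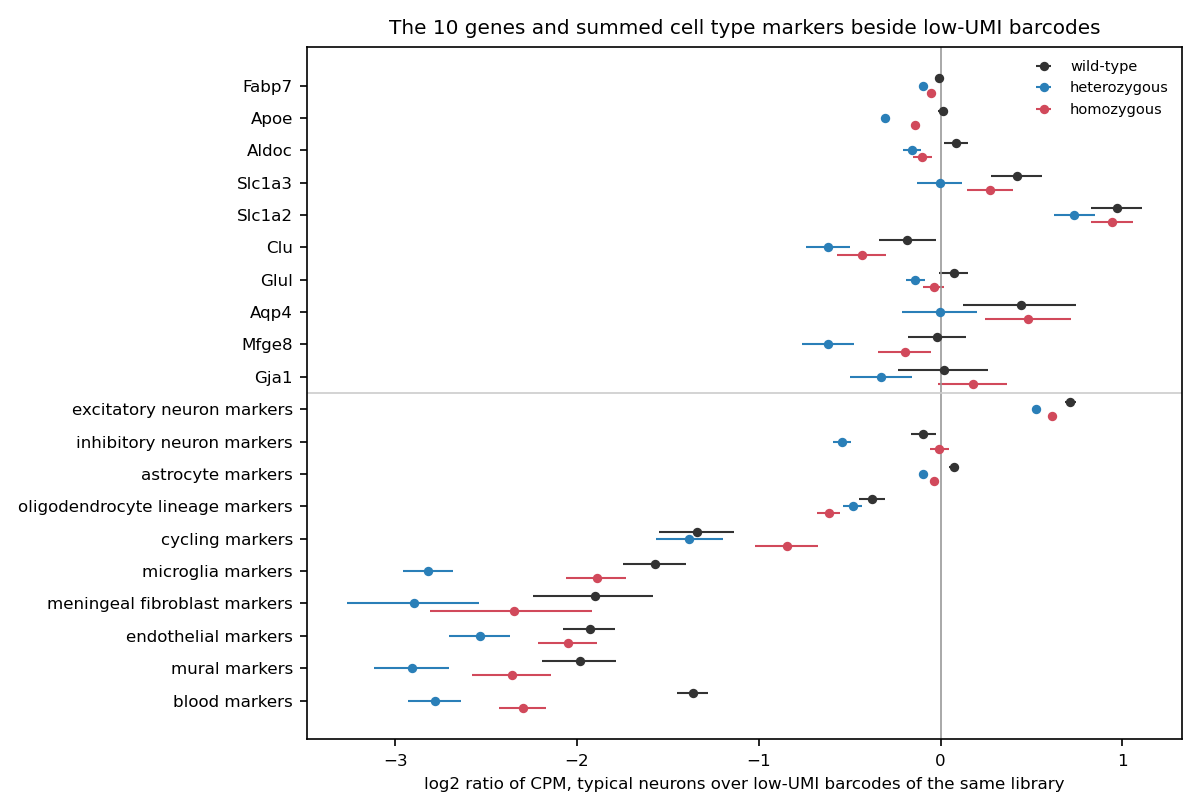
log2 ratio of CPM in typical neurons over low-UMI barcodes of the same library (horizontal axis) for the 10 genes and, under the grey line, for summed marker lists; points are libraries and bars are 95% counting intervals. *Slc1a2* lies at 0.97, 0.74 and 0.94, on the side of the excitatory neuron markers, *Fabp7* and *Apoe* lie between -0.31 and 0.013, and the blood, endothelial and microglia lists lie lower still.

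Per cell, the genes ranged from those found in nearly every neuron to those found in few. After each cell was thinned to 1000 UMIs, which left out no cell, *Fabp7* had at least 1 UMI in 98.7%, 97.3% and 98.6% of wild-type, heterozygous and homozygous typical neurons, and *Apoe* in 93.98%, 93.5% and 92.9%. Without thinning these shares were 99.9%, 99.6% and 99.7% and 98.4%, 98.3% and 97.1%. *Aldoc* was found in 45.0%, 47.5% and 46.1% of thinned neurons, *Glul* in 33.7%, 41.1% and 40.3%, *Slc1a2* in 14.2%, 16.0% and 15.5% and *Slc1a3* in 12.9%, 10.8% and 11.03%. *Aqp4* was found in only 3.54%, 3.70% and 3.76%. The unthinned shares were higher, for example 24.3%, 18.5% and 15.9% for *Slc1a3* and 53.7%, 60.7% and 52.1% for *Glul*, and are not comparable between libraries of different depth. In astrocyte-like cells the thinned shares were 91.1%, 79.2% and 83.4% for *Slc1a3*, 57.9%, 70.0% and 55.0% for *Slc1a2* and 46.2%, 46.9% and 43.2% for *Aqp4*.

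Free RNA in droplets gives UMIs in cells that do not make a gene. The shares are therefore set beside those of cells in clusters named for other classes. Such cells may make some of these genes themselves. Their thinned shares varied widely between clusters. In the inhibitory neuron-like clusters 11, 12 and 13, with 325, 149 and 823 cells and a median of 3268, 1772 and 1891 UMIs, 71.1%, 92.6% and 80.1% of cells held a *Fabp7* UMI and 60.6%, 84.6% and 73.4% an *Apoe* UMI. Of the 149 cells of cluster 12, 120 were typical neurons by the lists of the authors, against 3 of cluster 11 and 29 of cluster 13. In the oligodendrocyte lineage-like clusters 15, 17 and 21, with 84, 344 and 80 cells and a median of 4663.5, 2423.5 and 1557.5 UMIs, the shares were 67.9%, 96.8% and 92.5% for *Fabp7* and 38.1%, 79.1% and 93.75% for *Apoe*, and 42 cells of cluster 21 were typical neurons. In the microglia-like clusters 6 and 14, of 684 and 183 cells of which 134 and 0 were typical neurons, they were 95.03% and 62.8% for *Fabp7* and 93.9% and 91.8% for *Apoe*. The *Fabp7* share was higher in typical neurons of each library than in all 8 of these clusters, whereas the *Apoe* shares of clusters 6 and 21 were within the range of typical neurons. In cycling-like clusters 10 and 16, of 622 and 318 cells of which 285 and 0 were typical neurons, the *Fabp7* share was 98.4% and 68.2%. Clusters 6, 10 and 21 were weakly marked: their leading genes stood far less above the other clusters than those of clusters 14, 16 and 15. With all libraries pooled, *Fabp7* was at 4534, 5438 and 3966 CPM in clusters 6, 10 and 21. It was at 1528, 1610 and 1141 CPM in clusters 14, 16 and 15. How far the cells of clusters 6, 10 and 21 belong to the class named was not tested. Clusters 14 and 17 cannot be taken as cells without *Apoe*, which was there at 8194 and 5793 CPM, beside 4065 CPM in typical neurons. Since free RNA was not told apart from expression, a UMI of *Fabp7* or *Apoe* in a single neuron was not read here as expression by that neuron. The source of these UMIs was not tested. For *Clu* the share was 10.5%, 9.33% and 9.58% in typical neurons of the wild-type, heterozygous and homozygous library, 9.85%, 8.72% and 4.98% in clusters 11, 12 and 13 and 24.1% and 12.5% in clusters 17 and 21. With all libraries pooled, cluster 17 was at 422 CPM of *Clu* and typical neurons at 102 CPM, so its share is no background for *Clu*. In cluster 15 the thinned share was 0%, with an upper bound of 4.30%, although its 84 cells held 13 *Clu* UMIs before thinning. In mural-like cluster 7 it was 1.17%. *Slc1a3* was found in 5.85%, 8.05% and 12.5% of cells of clusters 11, 12 and 13, *Slc1a2* in 10.5%, 13.4% and 7.41% and *Aqp4* in 1.23%, 4.70% and 2.67%. In level, clusters 11, 12 and 13 had 1376 (1310.2 to 1444), 3509.8 (3306 to 3723) and 2288 (2216 to 2362) CPM of *Fabp7* with all libraries pooled, beside 5643 CPM in low-UMI barcodes and 5209 CPM in typical neurons.

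Among the abundant genes the spread over cells differed. In thinned typical neurons the variance over the mean of the UMIs per cell lay between 1.69 and 1.78 for *Fabp7* and between 2.87 and 3.60 for *Apoe*. It is not given for the other 8, which averaged less than 1 UMI per thinned neuron, where it lies nearer 1 for the same spread. The median typical neuron held 5, 4 and 5 *Fabp7* UMIs and 3 *Apoe* UMIs in each library, and the median astrocyte-like cell 9, 8 and 8 *Fabp7* UMIs and 22, 24 and 24 *Apoe* UMIs. At least 4 of the 10 genes were found in 39.0%, 39.9% and 39.0% of thinned typical neurons and 98.4%, 98.5% and 98.8% of astrocyte-like cells. Apart from *Apoe*, the 6 genes with the largest ratios of astrocyte-like cells over typical neurons were also counted on their own, and the difference between the classes follows in part from that choice. At least 3 of *Slc1a3*, *Clu*, *Aqp4*, *Mfge8*, *Gja1* and *Slc1a2* were found together in 1.91%, 1.94% and 2.39% of thinned typical neurons (34, 104 and 94 cells) and in 81.6%, 79.2% and 78.1% of astrocyte-like cells. None of these 6 was found in 57.4%, 60.4% and 59.7% of typical neurons.

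**Figure D3:**
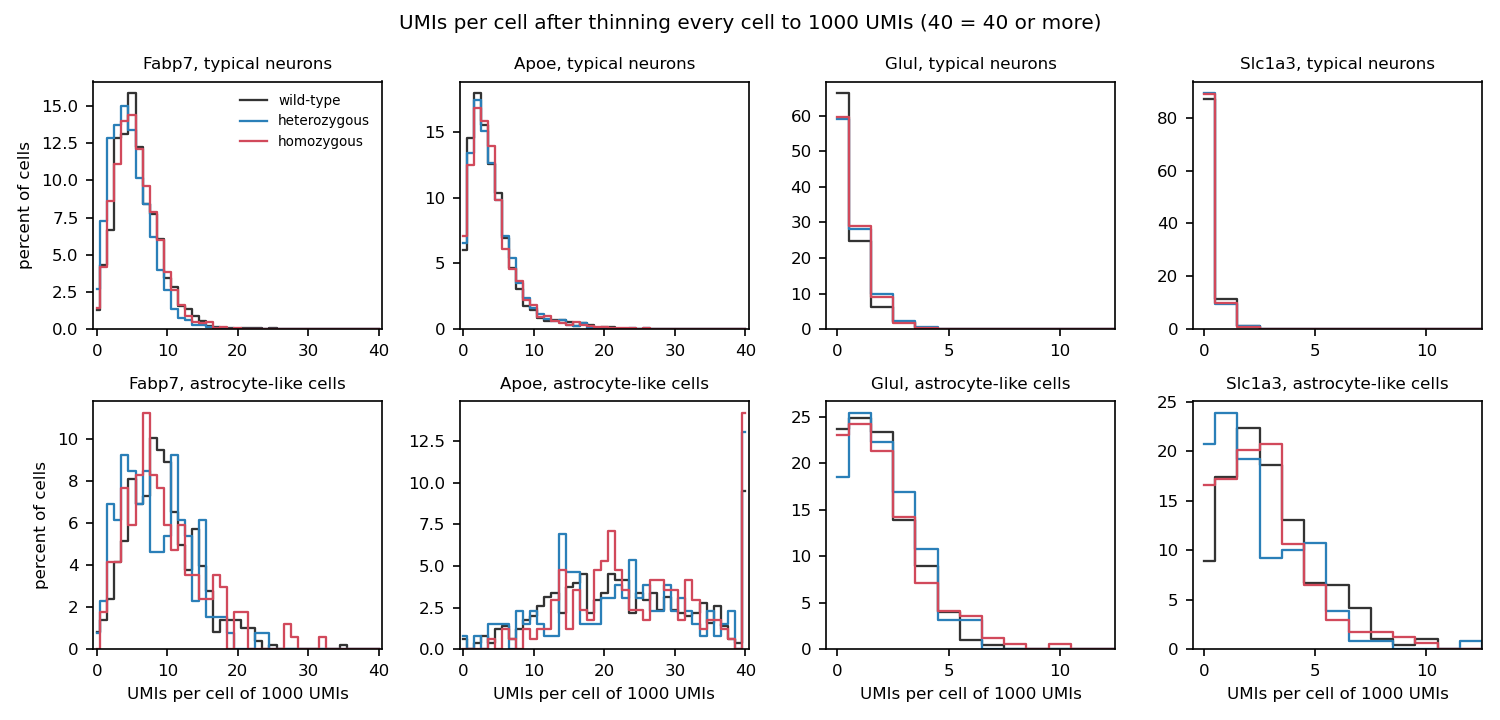
Percent of cells (vertical axis) by UMIs per cell after thinning to 1000 UMIs (horizontal axis) for *Fabp7*, *Apoe*, *Glul* and *Slc1a3* in typical neurons (upper row) and astrocyte-like cells (lower row); lines are the 3 libraries and the step at 40 holds 40 or more UMIs. The median is 3 *Apoe* UMIs per typical neuron and 22 to 24 per astrocyte-like cell, whereas the distributions of *Fabp7*, with medians of 4 or 5 and of 8 or 9, overlap widely.

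Over the 25 clusters, the astrocyte-like cells of cluster 3 held the highest level of *Fabp7*, *Aldoc*, *Slc1a3*, *Slc1a2*, *Glul*, *Aqp4*, *Mfge8* and *Gja1*, but not of *Apoe* and *Clu*. *Apoe* was highest in cluster 22, 114 unnamed cells led by *Pf4*, *Ccl7* and *Ccl2*, at 35809 (35259 to 36365) CPM, above the 23488 (23289.9 to 23687) CPM of astrocyte-like cells, and microglia-like cluster 14 came next at 8194 (7949 to 8443) CPM. *Clu* was highest in cluster 24, only 26 unnamed cells led by *Dynlrb2*, *Tmem212* and *Ccdc153*, at 1157 (922 to 1432) CPM, with astrocyte-like cells next at 869.6 (832 to 909) CPM. Neither pair of intervals overlapped.

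Several of the genes also had a high level in a further class. *Slc1a3* was at 901 (840.3 to 966) CPM in oligodendrocyte lineage-like cluster 17, led by *Pdgfra* and *Olig2*, and at 718 (645 to 797) CPM in meningeal fibroblast-like cluster 23, led by *Ptgds* and *Dcn*, beside 2595 (2529.6 to 2662) CPM in astrocyte-like cells. *Gja1* was at 606 (539 to 679) CPM in that fibroblast-like cluster and at 704 (669.7 to 739) CPM in astrocyte-like cells, and these intervals overlap. *Mfge8* was at 813 (727 to 906) CPM in mural-like cluster 7, led by *Acta2* and *Rgs5*, and at 1379 (1331 to 1428) CPM in astrocyte-like cells. *Aqp4* was the most restricted of the 10, since after 766 (730.2 to 802) CPM in astrocyte-like cells the next value was 69.9 (62.5 to 77.9) CPM in cluster 0. The lowest summed level, 1635 (1507 to 1770.4) CPM, was in cluster 20, 71 unnamed cells led by *Reln*.

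**Figure D4:**
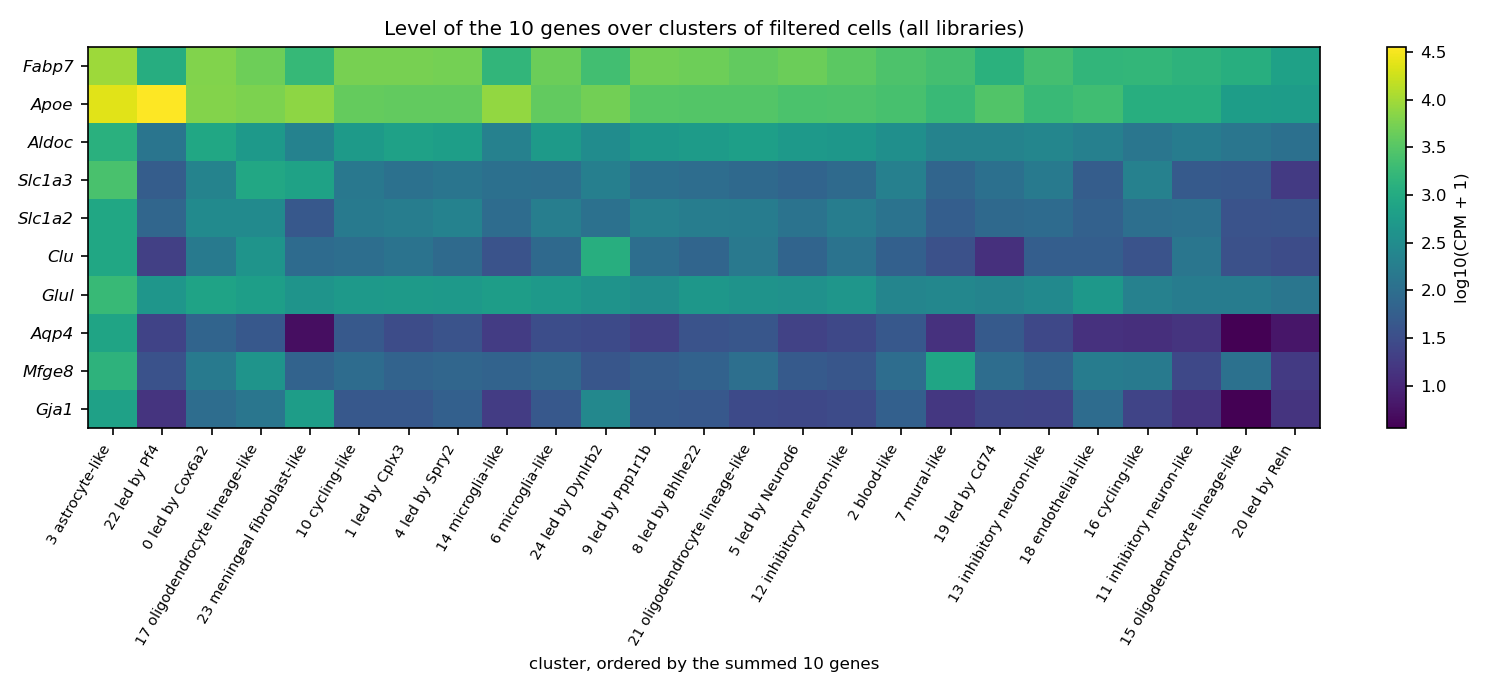
Level of the 10 genes (rows) over the 25 clusters of filtered cells of all libraries (columns, ordered by the summed level), as log10 of CPM + 1; a cluster without a name is given by its leading gene. Cluster 3 is first for 8 genes, *Apoe* reaches 35809 CPM in the cluster led by *Pf4*, and *Clu* reaches 1157 CPM in the cluster led by *Dynlrb2*.

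Typical neurons were not uniform for these genes. Cluster 0, with 2147 typical neurons among its 2278 cells and *Cox6a2*, *Dbx2* and *Kcnj16* first among its leading genes, was at 15331 (15219 to 15444) CPM of the 10 together. Its 10 leading genes held 1 astrocyte marker, *Acsbg1*, and no excitatory neuron marker, and 0 of the markers of any class were 2-fold above the other clusters. What part astroglial RNA or cells have in the levels of cluster 0 was not tested. Cluster 5, with 2651 typical neurons among 2718 cells and *Neurod6* first among its leading genes, was at 8401 (8318 to 8485) CPM, and each of the 10 genes was lower in it than in cluster 0. Within the wild-type, heterozygous and homozygous library *Apoe* was at 6651, 6073 and 7776 CPM in cluster 0 and at 2611, 2579.6 and 2700.2 CPM in cluster 5. *Slc1a3* was at 245, 198 and 269 against 87.3, 68.4 and 59.3 CPM and *Glul* at 594, 780.0 and 852 against 322, 403 and 394 CPM. *Slc1a2* was at 240, 297 and 308 against 105, 117 and 126 CPM, beside 84.9, 115 and 94.7 CPM in low-UMI barcodes. Its excess over low-UMI barcodes was thus smaller in cluster 5 than in cluster 0. The clusters were made from other genes of the same cells, so these levels are a description.

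Within a library the levels were also set against the UMIs per cell. Typical neurons of each library were ordered by UMIs and divided into 4 bins of equal size. From the bin with the fewest UMIs to that with the most, the sum of the 10 was at 11530.4, 11794, 11798 and 10577 CPM in wild-type, 11229.6, 10824, 10795 and 10131 CPM in heterozygous and 12293, 11816, 11797 and 10987 CPM in homozygous, lowest in the deepest bin of each library, although in wild-type it was not lower at each step. *Slc1a2* was at 140.2, 142, 173 and 191 CPM in wild-type, 167, 178, 179 and 217 CPM in heterozygous and 152, 163, 193 and 199.9 CPM in homozygous, the 1 gene of the 10 that was higher at each step in all 3 libraries. The median cells of the first and last bin held 1600 and 2691.5 UMIs in wild-type, 1304 and 2807 in heterozygous and 1099.5 and 2120 in homozygous.

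Between genotypes, 0 of the 10 genes differed from wild-type by 2-fold or more in typical neurons of either mutant library. Without neurons that held 2 or more astrocyte marker UMIs, which left 35 wild-type, 202 heterozygous and 260 homozygous neurons, 2 genes passed 2-fold, *Clu* with a log2 ratio of -1.05 in the heterozygous and *Gja1* with 1.18 in the homozygous library. No interval was computed for these 2 ratios, nor was the share of all genes past 2-fold in the neurons left. The shares that follow are of all typical neurons and give no scale for that count. Of all 4261 genes that averaged 20 CPM or more, 0.352% were higher and 0.399% lower by that much in the heterozygous library, and 0.235% and 0.282% in the homozygous library. The median log2 ratio of the 10 was 0.091 and 0.087, beside 0.062 and 0.081 for all genes, and 6 of the 10 were above 0 in each, where 58.8% and 61.0% of all genes were. The summed log2 ratio was -0.093 (-0.11 to -0.076) and 0.033 (0.015 to 0.050), the former turning to 0.0085 without neurons that held 2 or more astrocyte marker UMIs and the latter to -0.024 when scaled to the genes the authors kept for neuronal cells. Counted as raw UMIs per cell, every ratio of the homozygous library is lower by 0.42, the log2 difference in mean UMIs per typical neuron, and the values here are relative to that. Both mutant libraries were set against the same wild-type library, so their ratios are not independent. The sum of the 10 is mostly *Fabp7* and *Apoe*, so its ratio does not describe each of the 10.

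*Mfge8* showed the largest difference from wild-type among the 10 in typical neurons of the heterozygous library, but not of the homozygous library, where the log2 ratios of *Aqp4*, *Glul* and *Gja1* were farther from 0. It was at 108 (97.5 to 119), 68.3 (63.4 to 73.6) and 90.05 (82.7 to 97.9) CPM in typical neurons of the wild-type, heterozygous and homozygous library, log2 ratios of -0.66 (-0.84 to -0.48) and -0.26 (-0.45 to -0.070). The heterozygous library was the lowest, and the intervals of the wild-type and homozygous levels overlapped slightly. In astrocyte-like cells *Mfge8* was at 1508, 1057 and 1210.1 CPM, log2 ratios of -0.51 (-0.67 to -0.36) and -0.32 (-0.46 to -0.17). Markers of other classes differed between libraries within these cells. The 6 cycling markers, none at 0, summed to 341, 114 and 169 CPM. The 9 excitatory neuron markers, at most 1 of them at 0, summed to 834, 1605 and 1725 CPM. Their part in the astrocyte-like ratios of *Mfge8* and of the genes below was not tested. In low-UMI barcodes *Mfge8* was at 109, 105 and 103 CPM, and both intervals of the ratio spanned 0. Within clusters, over all their cells, the heterozygous library was below wild-type in each of clusters 0, 1, 4, 5 and 8, and the homozygous library in all but cluster 0, where it was at 211 CPM and wild-type at 196. Without neurons that held 2 or more astrocyte marker UMIs the heterozygous log2 ratio was 0.67. Only 35 wild-type and 202 heterozygous neurons were left for that value, and no interval was computed. Mural-like cells also held *Mfge8*, and the 7 mural markers, none at 0, summed to 57.8, 21.8 and 31.4 CPM in typical neurons; their part in the *Mfge8* values was not tested.

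*Slc1a3* was also lower than wild-type in both mutant libraries. Its log2 ratios were -0.35 (-0.50 to -0.20) and -0.22 (-0.38 to -0.056) in typical neurons and -0.24 (-0.34 to -0.14) and -0.13 (-0.23 to -0.029) in astrocyte-like cells, while both intervals spanned 0 in low-UMI barcodes. Within clusters the heterozygous library was lower in each of clusters 0, 1, 4, 5 and 8, but the homozygous library was above wild-type in clusters 0 and 4. The meningeal fibroblast-like and oligodendrocyte lineage-like clusters also held *Slc1a3*. In typical neurons of the wild-type, heterozygous and homozygous library the 7 meningeal fibroblast markers, at most 1 of them at 0, summed to 22.6, 7.29 and 7.74 CPM and the 10 oligodendrocyte lineage markers, none at 0, to 494, 497 and 433 CPM; their part in the *Slc1a3* values was not tested. *Fabp7* was lower in the heterozygous library, with a log2 ratio of -0.26 (-0.28 to -0.24) in typical neurons, -0.17 (-0.19 to -0.15) in low-UMI barcodes and -0.15 (-0.21 to -0.10) in astrocyte-like cells. In the homozygous library its ratios were -0.017, 0.026 and 0.027. *Clu* had log2 ratios of -0.17 and -0.15 in typical neurons and 0.27 and 0.10 in low-UMI barcodes.

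*Glul* was higher than wild-type in both mutant libraries, by log2 ratios of 0.38 (0.30 to 0.46) and 0.30 (0.21 to 0.39) in typical neurons, although as raw UMIs per cell the homozygous ratio was -0.12. Within each of clusters 0, 1, 4, 5 and 8 it was higher in both mutant libraries than in wild-type, for example at 434, 593 and 547 CPM in cluster 1 and 409, 489 and 444 CPM in cluster 8. In low-UMI barcodes *Glul* was at 416, 628 and 553 CPM, log2 ratios of 0.59 (0.54 to 0.65) and 0.41 (0.36 to 0.46), larger than those in neurons. In astrocyte-like cells its ratios were 0.20 (0.085 to 0.31) and 0.079 (-0.043 to 0.20). What part the low-UMI level has in the neuronal ratios was not tested.

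The remaining genes differed less or rested on fewer UMIs. *Aqp4* had log2 ratios of 0.37 (0.071 to 0.68) and 0.35 (0.022 to 0.68) in typical neurons, where it rested on 117, 429 and 246 UMIs. Its ratios were 0.81 (0.60 to 1.03) and 0.30 (0.093 to 0.51) in low-UMI barcodes and 0.62 (0.46 to 0.79) and 0.17 (-0.018 to 0.36) in astrocyte-like cells. Without neurons that held 2 or more astrocyte marker UMIs the heterozygous ratio in neurons was -0.24, with only 35 wild-type neurons left. As raw UMIs per cell the homozygous ratio in neurons was -0.074. *Gja1* had 0.21 (-0.038 to 0.47) and 0.29 (0.017 to 0.56) in typical neurons, *Slc1a2* 0.20 (0.069 to 0.33) and 0.13 (-0.012 to 0.28) and *Aldoc* 0.15 (0.085 to 0.22) and 0.10 (0.029 to 0.18). *Apoe* was close to wild-type in typical neurons at 0.027 and 0.069, and further from it in low-UMI barcodes at 0.34 (0.33 to 0.36) and 0.22 (0.20 to 0.24).

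In astrocyte-like cells 0 of the 10 genes differed from wild-type by 2-fold or more in either mutant library, where 1.64% of 5860 genes were higher and 3.96% lower in the heterozygous and 1.28% higher and 4.01% lower in the homozygous library. The summed log2 ratio there was 0.016 (-0.0077 to 0.041) and 0.074 (0.050 to 0.10). The latter turned to -0.012 with the low-UMI profile subtracted at a share set in typical neurons. The part that the differing marker levels of astrocyte-like cells, given above, have in these ratios was not tested. Among other cells, whose makeup differed between libraries, *Mfge8* was the 1 gene of the 10 past 2-fold, at 393, 184 and 285 CPM in the wild-type, heterozygous and homozygous library, where 5.85% of 5929 genes were lower and 2.38% higher by 2-fold in heterozygous and 1.45% and 1.18% in homozygous. In atypical cells the sum was at 9560.1, 10067 and 9504 CPM, below typical neurons of each library, but not every gene was lower there: *Slc1a3* was at 1.66 (1.38 to 1.98), 1.16 (0.774 to 1.68) and 0.773 (0.599 to 0.983) times its level in typical neurons of the wild-type, heterozygous and homozygous library and *Slc1a2* at 1.05 (0.855 to 1.28), 2.37 (1.92 to 2.91) and 0.988 (0.819 to 1.18) times. Of the atypical cells, 40 lay in oligodendrocyte lineage-like cluster 17, which was at 901 CPM of *Slc1a3*. Of the 344 cells of that cluster, 292 were wild-type. Their part in the *Slc1a3* values of atypical cells was not tested.

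**Figure D5:**
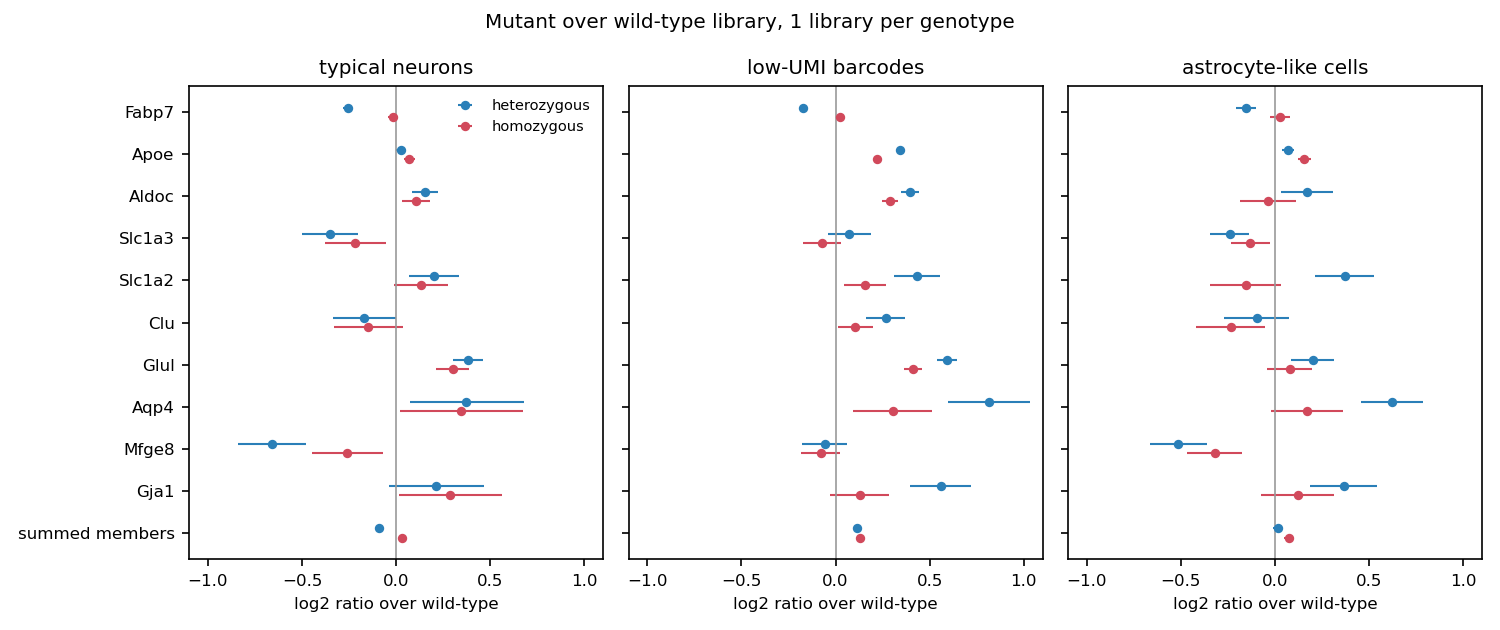
log2 ratio of CPM of each mutant library over the wild-type library for the 10 genes and their sum (horizontal axis) in typical neurons, low-UMI barcodes and astrocyte-like cells; bars are 95% counting intervals and each genotype is 1 library. *Mfge8* and *Slc1a3* lie below 0 in typical neurons and astrocyte-like cells of both mutants, and *Glul* lies at 0.38 and 0.30 in typical neurons and at 0.59 and 0.41 in low-UMI barcodes.

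Counterparts of these genes with other cell specificity gave other patterns. *Fabp5*, a fatty acid binding protein found in many cell types, was at 1910.3, 1443 and 1516 CPM in typical neurons of the wild-type, heterozygous and homozygous library and 1.15, 1.28 and 1.14 times that in astrocyte-like cells. Its log2 ratios over wild-type were -0.40 (-0.45 to -0.36) and -0.33 (-0.38 to -0.29) in typical neurons and -0.29 and -0.28 in low-UMI barcodes. *Aldoa*, the widely used aldolase, was at 541, 597 and 563 CPM in typical neurons and 1.01, 1.06 and 1.06 times that in astrocyte-like cells, where *Aldoc* was at 2.01, 2.03 and 1.82 times. *Slc1a1*, the neuronal glutamate transporter, was at only 6.54, 7.68 and 8.07 CPM in typical neurons, below *Slc1a3* and *Slc1a2* in the same cells. *Slc17a7* was at 38.4, 46.9 and 38.5 CPM and *Gjd2*, the neuronal connexin, at 2.997, 3.94 and 3.62 CPM.

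Lists of genes of the same pathways were set beside the 10. Of all genes that averaged 20 CPM or more in typical neurons, 50.9% were above and 31.1% below wild-type in both mutant libraries, with medians of 0.062 and 0.081. Of 35 genes of lipid transport and synthesis, 18 averaged 20 CPM or more in typical neurons, of which 10 were above and 6 below wild-type in both mutant libraries, with medians of 0.24 and 0.13. *Dbi*, the acyl-CoA binding protein, had the most UMIs of the list, at 5472, 5903 and 6683 CPM in astrocyte-like cells and 4727, 4609.8 and 5668 CPM in typical neurons. *Ptgds*, prostaglandin D2 synthase, was the 1 gene of the list past 2-fold in both mutant libraries, where 0.188% of all genes were lower and 0.164% higher, at 292, 25.8 and 38.4 CPM in typical neurons and 926, 343 and 221 CPM in low-UMI barcodes. *Ptgds* led the meningeal fibroblast-like cluster, and the 7 meningeal fibroblast markers, *Ptgds* not among them and at most 1 of them at 0, summed to 22.6, 7.29 and 7.74 CPM in typical neurons; their part in the *Ptgds* values was not tested.

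Of 16 genes of glutamate and glutamine handling, 7 averaged 20 CPM or more in typical neurons, 3 above and 4 below wild-type in both mutant libraries, with medians of -0.076 and -0.045. *Slc7a10*, a neutral amino acid transporter of astrocytes, was at 476, 675 and 554 CPM in astrocyte-like cells and, over all libraries, 11.2 times higher there than in typical neurons, while *Glud1*, glutamate dehydrogenase, was 2.29 times higher. Of 13 potassium, water and gap junction partners, 5 averaged 20 CPM or more in typical neurons, 2 above and 3 below wild-type in both mutant libraries, with medians of -0.20 and -0.24. The sodium pump subunit *Atp1b2*, among the most abundant of these in astrocyte-like cells, was there at 8.37 times its level in typical neurons.

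Of 9 phagocytic bridging partners, which hold receptors and bridging proteins that act with or beside *Mfge8*, 0 averaged 20 CPM or more over the libraries in typical neurons. The 2 with the most UMIs in astrocyte-like cells, the integrin subunits *Itgb5* and *Itgav*, were there at 7.96 and 8.29 times their levels in typical neurons. Of 10 glycolytic genes listed with *Aldoc*, 9 were in the table and 8 averaged 20 CPM or more in typical neurons. *Gapdh* and *Ldhb* were in astrocyte-like cells at 1.14 and 1.45 times their levels in typical neurons. In typical neurons 7 of the 8 were above and 1 below wild-type in both mutant libraries, where 50.9% and 31.1% of all genes were, with medians of 0.13 and 0.15, and the 1 below was *Gapdh*, at 1104, 855 and 791 CPM.

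Likeness of pattern was measured over 48 points from 22 clusters, each point being a cluster in a library with at least 50 cells, as Pearson's r of log2(CPM + 10) with that of the 10 genes summed. The points share libraries, depth and droplet background, so r is a description without a p-value. The 5 genes outside the 10 with the highest r were *Mt1* (0.91), *Pla2g7* (0.90), *Cst3* (0.85), *Mt2* (0.81) and *Slc14a1* (0.81). Of the 10, *Glul* followed the sum of the other 9 most closely (0.87) and *Mfge8* least (0.45).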

How the data were processed

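UMI counts were made by the authors with Cell Ranger 2.0.1 on mm10 and deposited as raw counts, per library for every barcode and in 1 table for the cells that passed their limits on mitochondrial share, UMIs and genes. Deposited per cell were also counts of UMIs and genes and the mitochondrial share as a fraction. The table of neuronal cells holds, as deposited, the natural log of scaled counts, and was read here for its genes. A table scaled and centered by the authors was not used.

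Raw UMIs were summed per library over typical neurons, atypical cells and other cells, as listed by the authors, over astrocyte-like cells and over low-UMI barcodes, and divided by all UMIs of the same cells (CPM). Levels have exact Poisson intervals, ratios exact conditional binomial (Clopper-Pearson) intervals and shares exact binomial intervals, at 95%. No test was made, since each genotype is 1 library and cells are not replicates; a 2-fold difference among genes averaging 20 CPM or more was the size used for counts. Clusters were made with scanpy 1.11.5 and leidenalg 0.10.2 (2000 variable genes without mitochondrial genes and the 10 genes, 30 principal components, 15 neighbours, resolution 1). A cluster was named where at least 3 and no fewer than 50% of the markers of a class were 2-fold above the other clusters (10 CPM added), at least 1 stood among its 10 leading genes and no other class had more there; this rule was set after the clusters were seen. Thinning drew 1000 UMIs per cell. edgeR 4.0.16 and DESeq2 1.42.0 gave alternative scaling factors only. Where the low-UMI profile was subtracted, its share was 25.3%, 13.3% and 19.5% in the wild-type, heterozygous and homozygous library. This share was the ratio of the mural markers in typical neurons over low-UMI barcodes, the lowest of the non-neuronal lists compared. It was applied unchanged to astrocyte-like cells. Interval code was tested on simulated data, and thinned counts were compared with depth-scaled counts of the same cells. Genes named beside the 10 are counterparts, the 2 genes of each pathway list with the most UMIs in astrocyte-like cells, those past 2-fold in both mutant libraries, and the 5 most alike in pattern; a few genes that this rule names are not reported here. The 10 genes and all lists were chosen with earlier results of these data known.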

Additional observations from a re-analysis of the deposited data

Results flagged for a closer look

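For 2 values the heterozygous library stood on opposite sides of wild-type in typical neurons and in low-UMI barcodes, with both counting intervals leaving out 0. For *Clu* the log2 ratio was -0.17 in typical neurons and 0.27 in low-UMI barcodes, and for the 10 genes summed it was -0.093 and 0.11. The sum is mostly *Fabp7* and *Apoe* and does not describe each of the 10. *Fabp7* was at 5713 CPM in wild-type and 4775 in heterozygous typical neurons, and at 5752 and 5111 in low-UMI barcodes. *Apoe* was at 3968 and 4041 CPM in typical neurons and at 3933 and 4994 in low-UMI barcodes. With 1 library per genotype these differences were not tested.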

How the results depend on the processing

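Of 552 values recomputed under an alternative, those of single genes moved by less than their counting interval in 361, moved further in 70 and, from an interval that left out 0, changed sign in 9; sums, shares and counts stayed in 61, moved in 39 and changed sign so in 12. The summed log2 ratio in typical neurons, -0.093 heterozygous and 0.033 homozygous, became -0.12 and -0.024 scaled to the genes kept for neuronal cells, -0.18 and -0.39 as raw UMIs per cell, -0.13 and 0.0074 with the low-UMI profile subtracted and 0.0085 and 0.27 without neurons holding 2 or more astrocyte marker UMIs; with atypical cells the heterozygous value was -0.059. In astrocyte-like cells it was 0.016 and 0.074, and 0.057 and 0.14 with TMM factors, 0.093 and 0.16 with DESeq2 factors, 0.078 and -0.31 as raw UMIs per cell, -0.15 and -0.012 with the profile subtracted and 0.048 and 0.13 at resolution 2; thinning gave -0.013 for heterozygous, and leaving out the 5% deepest cells 0.12 for homozygous. For typical neurons over low-UMI barcodes, 0.021, -0.18 and -0.074 in the wild-type, heterozygous and homozygous library, the log2 ratio was 0.042, -0.17 and -0.061 with thinned cells, -0.015, -0.19 and -0.10 with atypical cells, -0.62, -0.73 and -0.49 without marker-holding neurons, 0.10, 0.066 and 0.20 over barcodes of at least 20 and fewer than 100 UMIs, -0.24, -0.055 and -0.13 over those of at least 10 and fewer than 50 UMIs, and -0.17 and -0.056 for heterozygous and homozygous as a mean over cells. With typical neurons scaled to the genes kept, the log2 ratio was 0.14, 0.0021 and 0.069 in the wild-type, heterozygous and homozygous library. There the low-UMI side was not divided by UMIs of those genes, so the totals of the compared sides are unlike. No change of sign is read from that alternative, although the counts at the start of this paragraph include it. The share of neurons with a *Slc1a3* UMI, 24.3%, 18.5% and 15.9%, was 12.9%, 10.8% and 11.03% with thinned cells and 11.4%, 8.42% and 6.15% without marker-holding neurons. Leaving those out kept only 1.97%, 3.77% and 6.61% of typical neurons, so the lower share follows in part from that choice. It also put 2 of the 10 genes past 2-fold, and the share of all genes past 2-fold in the neurons left was not computed.

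Without marker-holding neurons the heterozygous log2 ratio was -0.24 for *Aqp4* and 0.67 for *Mfge8*. These values came from 35 wild-type and 202 heterozygous neurons, and no interval was computed. As raw UMIs per cell the homozygous ratio in typical neurons was -0.35 for *Apoe*, -0.31 for *Aldoc*, -0.12 for *Glul*, -0.074 for *Aqp4* and -0.13 for *Gja1*, and that of *Apoe* in astrocyte-like cells -0.23; with the profile subtracted, *Apoe* in heterozygous astrocyte-like cells was at -0.12. Raw UMIs per cell carry the lower depth of the homozygous library; the cause of the other shifts was not tested. The counts of all genes past 2-fold in typical neurons, 32 heterozygous and 22 homozygous, were 1556 and 1576 without a filter on low levels and 10 and 8 at a mean of at least 100 CPM. Leaving out the typical neurons of the astrocyte-like cluster, or the astrocyte-like cells counted as typical neurons, was added after seeing the data. No replicate could be left out, since each genotype is 1 library. No paired analysis was possible because each genotype has 1 library. The spread between libraries of one genotype is not measured, and the number of animals behind each library is unknown here.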
